A study of Mus musculus with 12 samples.

Results

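The 77 genes described here are those named as mitochondrial ribosomal proteins of the mouse. They are the rows of the count table named Mrpl or Mrps followed by a number and at most 1 letter, with at least 100 counts summed over the 12 libraries, out of 48709 gene intervals. All 77 rows with such a name passed that minimum, with sums of 12230 to 68848 counts and 551 to 8679 counts in any 1 library. All 77 also passed the filter on low counts that left 28846 genes to test. By the known makeup of the mammalian mitoribosome, 50 belong to the large subunit and 26 to the small one. The remaining gene, Mrps36, carries the name but encodes a component of the alpha-ketoglutarate dehydrogenase complex.

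Total RNA was sequenced from cardiogenic regions, the tissue that forms the heart, dissected from mouse embryos, with 3 libraries at each of 4 stages: embryonic day 8 (E8), day 8.5 (E8.5), day 9.5 (E9.5) and day 14 (E14). The labels name no strain, genotype or treatment. Nor do they say whether a stage's 3 libraries derive from different embryos or litters, so the p-values reflect the spread among libraries, part of which may be technical. Libraries held 56574386 to 122785175 counts. Levels are CPM, each gene's share of its library's counts on a common scale, with library size adjusted by the trimmed mean of M-values (TMM) method. In whole tissue, fewer cells of a type and less RNA per cell cannot be told apart.

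The mitoribosome translates the few messenger RNAs made from mitochondrial DNA, which encode core subunits of the respiratory chain and of ATP synthase. All of its proteins are encoded in the nucleus, made in the cytosol and imported, and it carries many proteins that bacterial ribosomes lack beside those inherited from a bacterial ancestor. The embryonic heart is among the earliest organs to work, and its mitochondria mature as it does. Inherited defects of several of these proteins cause cardiomyopathy in people.

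The promoters of the family are shown first, because NRF1, factors of the ETS family such as GABP, and YY1 are known to act on promoters of nuclear genes for mitochondria. RefSeq windows (GRCm38.p6) from 250 bases before to 50 bases after a start site were given for 68 of the 77 genes, in 74 windows. The letters searched, on both strands, were GCGCATGC (NRF1 core), CCGGAAGT (ETS and GABP) and AAGATGGC (YY1). Matches to different motifs did not overlap, and the NRF1 core overlapped its own match on the other strand in Mrpl9, Mrpl32 and Mrpl39. GCGCATGC lay in 8 of the 74 windows (10.8%), beside 2.71% of all 32851 windows of that length. CCGGAAGT lay in 12 (16.2%, beside 3.89%) and AAGATGGC in 12 (16.2%, beside 2.75%). At least 1 of them lay in 29 windows (39.2%, beside 8.83%). The family's windows were also richer in CG dinucleotides, with a median of 21.5 per window beside 7 over all windows, and the part of base composition in these shares was not tested. A match is a description of letters, and no binding was measured here.

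The stretches below were chosen because they set a match beside its absence in genes that moved and did not move. They are the exon-free bases before the start site, 5′ to 3′ on the gene's strand, with matches in capitals. The Mrpl22 stretch is chr11:58171414-58171660 (plus strand), with an NRF1 core starting 33 bases before the start site. The Mrps22 stretch is chr9:98601680-98601929 (minus strand), with an ETS match starting 11 bases before it. The Mrpl10 stretch is chr11:97041408-97041559 (plus strand), with an NRF1 core on the other strand, starting 134 bases before the start site. The Mrps33 stretch is chr6:39810989-39811186 (minus strand) and holds none of the 3 motifs.
Mrpl22: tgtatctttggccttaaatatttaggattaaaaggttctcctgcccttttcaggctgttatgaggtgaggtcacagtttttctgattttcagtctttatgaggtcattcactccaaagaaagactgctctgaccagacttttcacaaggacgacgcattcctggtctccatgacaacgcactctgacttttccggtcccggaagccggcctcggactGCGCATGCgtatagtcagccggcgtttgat
Mrps22: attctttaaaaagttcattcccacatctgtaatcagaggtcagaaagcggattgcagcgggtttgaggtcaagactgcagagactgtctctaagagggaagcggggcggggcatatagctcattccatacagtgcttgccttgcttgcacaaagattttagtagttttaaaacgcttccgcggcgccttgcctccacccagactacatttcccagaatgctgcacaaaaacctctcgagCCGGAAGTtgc
Mrpl10: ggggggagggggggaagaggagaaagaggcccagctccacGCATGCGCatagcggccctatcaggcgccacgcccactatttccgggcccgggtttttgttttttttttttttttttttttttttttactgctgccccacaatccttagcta
Mrps33: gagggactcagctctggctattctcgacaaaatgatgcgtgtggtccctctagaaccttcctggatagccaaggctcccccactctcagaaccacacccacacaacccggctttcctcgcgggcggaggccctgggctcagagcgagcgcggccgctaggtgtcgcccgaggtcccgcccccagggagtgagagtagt
From E8.5 to E9.5, Mrpl22 and Mrps22, which hold a match, and Mrps33, which holds none, all rose, while Mrpl10, which holds a match, was not called, as described below. No match says only that these letters are not in this window. The stretches shown include no gene that held no match and was not called. Whether matches go with changes over the family was not tested.

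The family's summed level dipped at E8.5, peaked at E9.5 and stayed above its E8 level at E14. It was 1801, 1864 and 1854 CPM in the 3 E8 libraries, 1724, 1495 and 1720 CPM in those of E8.5, 2028, 2195 and 2222 CPM in those of E9.5, and 2120, 1907 and 1979 CPM in those of E14. No library of E8.5 reached any of E8, and those of E9.5 and E14 lay above all of E8 and E8.5 but overlapped each other. The E9.5 mean was 30.5% above the E8.5 mean. Of the 77 genes, 55 had their highest stage mean at E9.5 and 15 at E14, and 59 had their lowest at E8.5 and 11 at E14. In a test of any difference over the 4 stages (edgeR's quasi-likelihood F-test, adjusted p under 0.05 by Benjamini-Hochberg over all genes tested), 68 of the 77 were called, beside 72.3% of all genes tested.

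**Figure D1:**
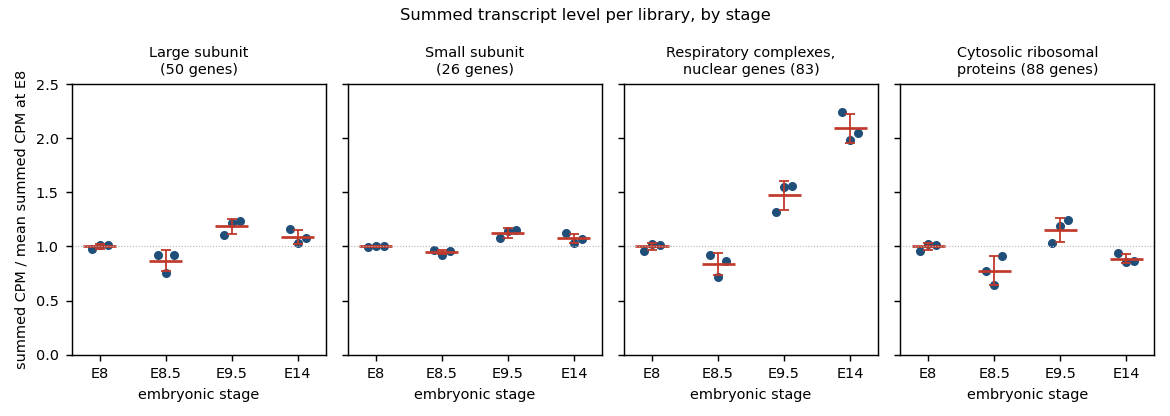
Summed CPM of each gene list in each library, divided by that list's mean at E8, by stage; points are the 3 libraries, red lines the mean and bars the SD. Both mitoribosomal subunits and the cytosolic ribosomal proteins are highest on average at E9.5, while nuclear genes of the respiratory complexes go on to their highest level at E14.

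Both subunits followed this course. The large subunit summed to 1201 ± 28.9, 1042 ± 116, 1423 ± 78.2 and 1310 ± 78.8 CPM over the 4 stages in order (SD, n = 3). The small subunit summed to 622 ± 4.98, 591 ± 13.4, 699 ± 26.4 and 669 ± 27.2 CPM over the same stages (SD, n = 3). The ratio of large to small ran from 1.58 in E8.5 replicate 2 to 2.07 in E9.5 replicate 3, with the other 10 libraries between them. The small-subunit sum includes Mrps6, whose interval encloses another counted gene, and Mrps28. Both had their highest E8.5 level in replicate 2 and fell to E9.5, as described below. The ratio without these genes was not computed.

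**Figure D2:**
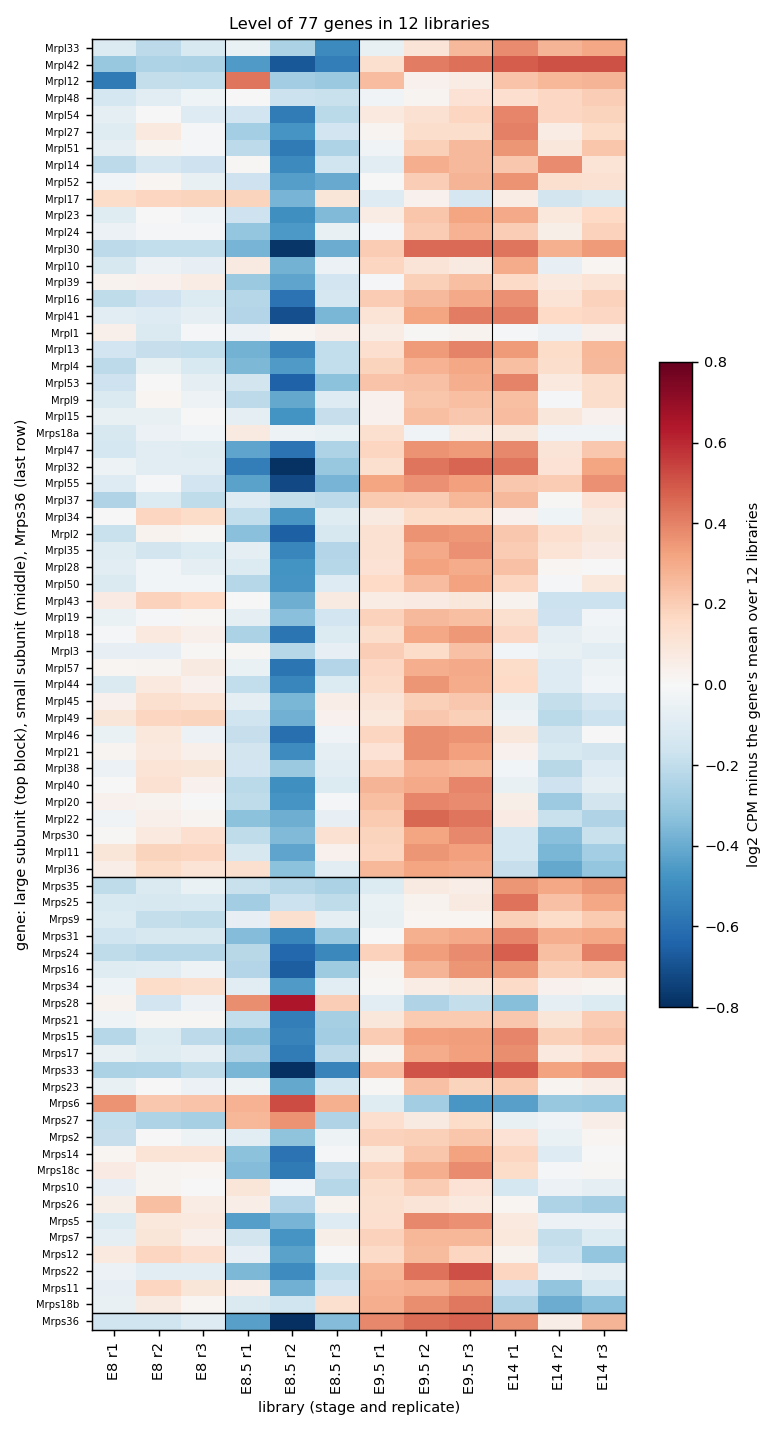
Log2 CPM of each of the 77 genes (rows, by subunit) in each of the 12 libraries (columns), minus the gene's mean over the 12. Most rows are blue at E8.5, most strongly in replicate 2, and red at E9.5. Mrps6 and Mrps28 run the other way.

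The replicates of a stage were not equally alike. The median coefficient of variation over the 77 genes was 3.32% within E8, 13.2% within E8.5, 6.40% within E9.5 and 7.09% within E14. E8.5 replicate 2 held the lowest level of all 12 libraries for 60 of the genes. E8.5 replicate 3 differed in other ways. In it 7 markers of visceral endoderm, a tissue outside the embryo proper, summed to 1642 CPM, against 148 and 54.1 CPM in E8.5 replicates 1 and 2. The 5 foregut markers summed to 378 CPM (against 173 and 192) and the 4 epicardial markers to 5.20 CPM (against 10.4 and 11.7). The 20 cell cycle genes summed to 2530 CPM (against 2099 and 1972) and 88 cytosolic ribosomal protein genes to 20723 CPM (against 17504 and 14646).

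Other cell types also changed with stage. The 5 cardiomyocyte markers (Myh6, Myh7, Tnnt2, Actc1 and Nkx2-5) were present in all libraries, at a sum of 8516 to 10102, 8702 to 9317, 10636 to 12277 and 15676 to 15856 CPM over the 4 stages in order, and 2 of 5 rose from E8.5 to E9.5. The 6 erythroid markers summed to 510 to 543, 661 to 1117, 3891 to 9969 and 7868 to 26151 CPM in the same order, and all 6 rose from E8.5 to E9.5. Over that interval all 4 epicardial and all 4 fibroblast markers rose, 6 of 7 visceral endoderm markers, 5 of 5 foregut markers, 2 of 3 neural markers and 1 of 4 endothelial markers fell, and 0 of 3 macrophage markers were called. Foxa2 of the foregut list and Apoa4 of the visceral endoderm list were near 0 at E14, and Sox1 of the neural list was near 0 at E8, E9.5 and E14. Their part in the results below was not tested.

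From E8 to E8.5 the family tended to lower levels without any gene passing the test. Of the 77 genes, 0 were called in either direction, beside 0.891% of all genes tested called higher and 0.291% called lower. The median log2 fold change was -0.23 over the family and 0.02 over all genes tested. In 40 of the 77 all 3 E8.5 libraries lay below all 3 of E8, a share not counted over all genes tested. Without E8.5 replicate 2, which held the lowest levels, the family's median was -0.13, and without replicate 3 it was -0.33. Lower levels were not particular to the family. Among the lists described below, the median was -0.38 over cytosolic ribosomal protein genes, -0.30 over nuclear respiratory genes and -0.18 over cell cycle genes. It was 0.24 over regulators of mitochondrial gene expression and -0.21 to -0.02 over the other mitochondrial lists. An unadjusted p under 0.05 was found for 45 of the 77 genes, of which 42 were lower. Over all 28846 genes tested it was found for 8106, of which 3483 were lower. DESeq2 called 2 of the 77 higher and 21 lower, and its share over all genes tested was not counted. Mrpl55, a large-subunit protein related to bacterial L31, came closest, at 11.6, 12.4 and 11.2 CPM at E8 and 9.25, 7.58 and 9.66 CPM at E8.5 (log2 fold change -0.41 ± 0.09 SE, adjusted p = 0.0515, edgeR). Those groups did not overlap.

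The calls of this interval depended on the method, as given for DESeq2 above, and on the libraries used. Among the fits that each left out 1 library, only the one without E8.5 replicate 3 called any of the 77 genes. Without this library, the one highest in visceral endoderm markers, 45 of the 77 genes fell and 2 rose. In the same fit 15.7% of all genes tested were called lower and 14.2% higher. The largest falls were then Mrpl32, a large-subunit protein that is cut after import (-0.63 ± 0.12 SE, adjusted p = 0.00315), and Mrps14, a small-subunit protein of the head (-0.56 ± 0.11 SE, adjusted p = 0.00311). The 2 rises were Mrps28 (0.54 ± 0.10 SE, adjusted p = 0.0029) and Mrps27 (0.51 ± 0.06 SE, adjusted p = 0.000685), both with long genes. The part of visceral endoderm RNA, or of the library's other differences given above, was not tested.

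From E8.5 to E9.5, 62 of the 77 genes rose and 2 fell, beside 18.4% of all genes tested called higher and 18.5% called lower. Among protein-coding genes the shares were 20.8% higher and 20.8% lower. In 61 of the 62 all E9.5 libraries lay above all E8.5 libraries, a share not counted over all genes tested. The 62 were called on these same libraries, so this separation is no further support. The rises were small and broad, from 0.23 to 0.99 on the log2 scale, and 21 reached 1.5-fold. The median log2 fold change was 0.44 over the family (1.36-fold) and -0.03 over all genes tested.

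In the large subunit 42 of 50 genes rose and 0 fell, and in the small subunit 19 of 26 rose and 2 fell. Of 48 proteins with a bacterial counterpart 38 rose and 2 fell, with a median of 0.45, and of 28 found only in mitochondria 23 rose and 0 fell, with a median of 0.43. Among the 38 genes whose interval overlaps no other counted gene, 35 rose and 0 fell. Without globin and small structural RNA genes, 65 of the 77 rose and 2 fell, and without E8.5 replicate 3 the counts were 64 and 3. The count of rises was 57 without E8.5 replicate 2, 54 without E9.5 replicate 2 and 53 without E9.5 replicate 3. In a fit of the 2 stages alone 51 genes rose. Shares over all genes tested were not counted in this interval for these fits.

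**Figure D3:**
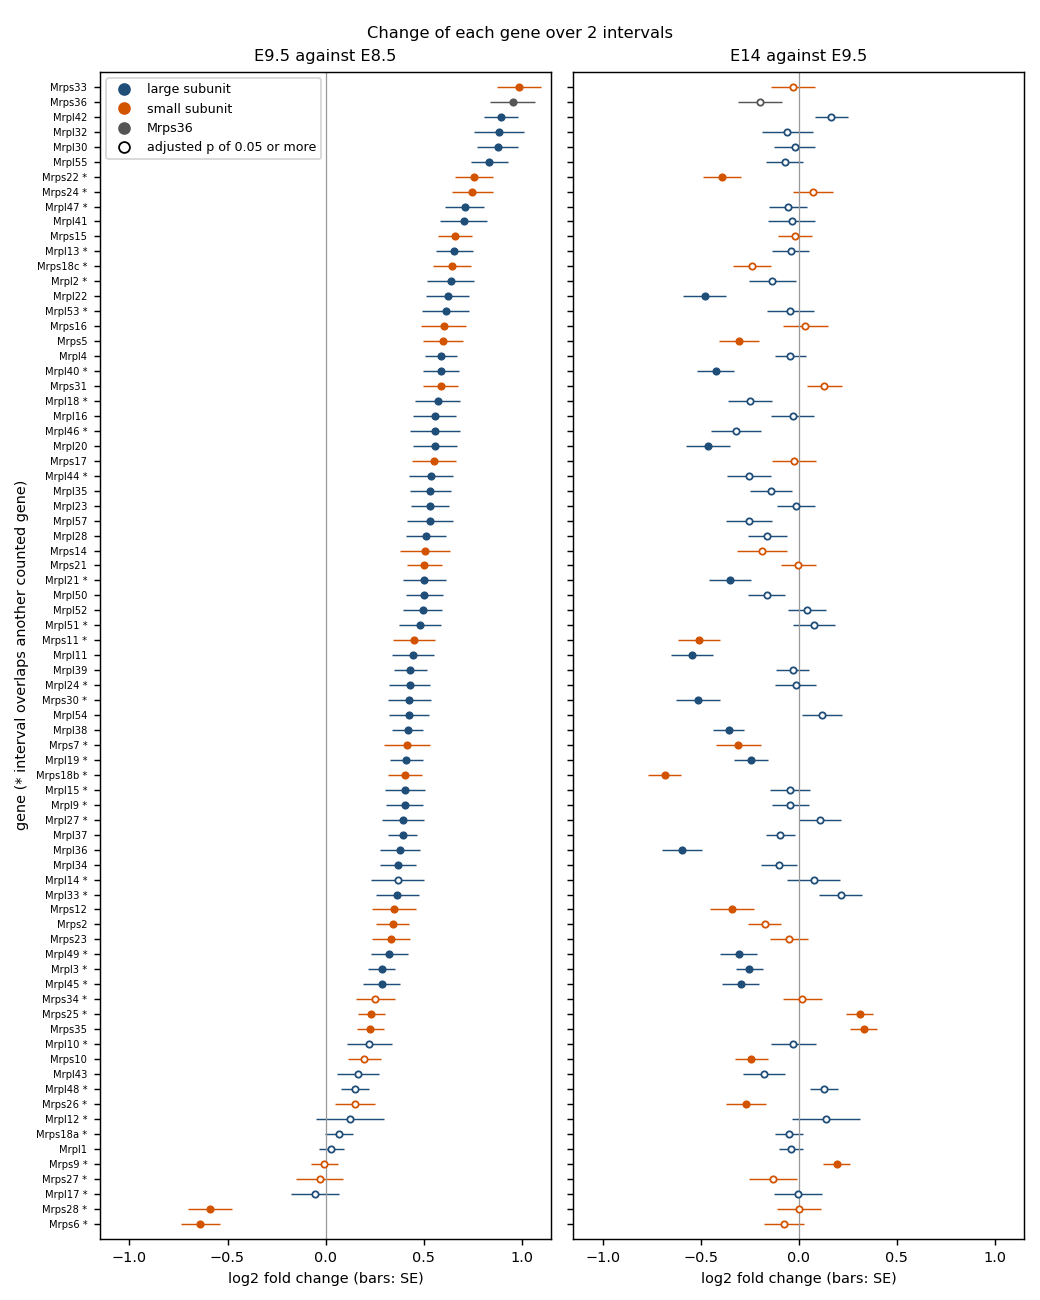
Log2 fold change and SE of each of the 77 genes from E8.5 to E9.5 (left) and from E9.5 to E14 (right), in the order of the left panel, coloured by subunit; filled points passed the adjusted p of 0.05. On the left 62 filled points lie above 0 and 2 below, and on the right 3 lie above and 20 below.

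Mrps33, a small-subunit protein found only in mitochondria, rose most (chr6:39801804-39810988, GRCm38). It measured 14.8, 10.7 and 13.2 CPM at E8.5 and 22.6, 27.0 and 27.0 CPM at E9.5. The groups were far apart, with a log2 fold change of 0.99 ± 0.11 SE (adjusted p = 0.000125, edgeR), or 1.98-fold. At E8 it had measured 16.0, 16.0 and 16.5 CPM, so its E9.5 level also lay above E8. At E14 it stood at 26.8, 23.8 and 24.5 CPM, which overlapped E9.5.

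Mrpl42, a large-subunit protein found only in mitochondria (chr10:95480806-95501927), went from 27.1, 23.3 and 25.4 CPM at E8.5 to 40.7, 49.5 and 50.5 CPM at E9.5. Its log2 fold change was 0.89 ± 0.09 SE, with the smallest adjusted p of the family in this interval (5.91e-05, edgeR). The groups did not overlap. Mrpl30, a large-subunit protein with a bacterial counterpart (chr1:37890477-37898535), went from 24.7, 18.6 and 24.1 CPM to 36.6, 43.5 and 43.5 CPM (0.88 ± 0.11 SE, adjusted p = 0.000178). Mrpl32 (chr13:14610301-14613037), whose promoter window held 4 matches to the NRF1 core and 1 to YY1, went from 9.84, 8.35 and 11.7 CPM to 15.8, 19.4 and 19.96 CPM (0.88 ± 0.13 SE, adjusted p = 0.000494). In each of these genes every E9.5 library lay above every E8.5 library.

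Mrpl55 (chr11:59202486-59206134) went from the low E8.5 levels above to 15.5, 16.1 and 15.6 CPM (0.83 ± 0.09 SE, adjusted p = 0.000119). Mrps24, the small-subunit counterpart of bacterial S3 (chr11:5703983-5715680), went from 18.3, 13.8 and 14.9 CPM to 24.3, 27.0 and 27.7 CPM (0.75 ± 0.10 SE, adjusted p = 0.000358). Both were separated between the stages, but the Mrps24 interval overlaps another counted gene with 1.09 times its count.

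Mrps36, the dehydrogenase component, rose too. It measured 14.3, 11.01 and 15.1 CPM at E8.5 and 25.2, 26.3 and 26.8 CPM at E9.5 (0.95 ± 0.11 SE, adjusted p = 0.000157). Leaving it out makes the count of rises 61 of 76 ribosomal genes.

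Against E8 instead of E8.5, a comparison added after seeing the data, 24 of the 77 genes were higher at E9.5 and 1 was lower, beside 13.6% of all genes tested called higher and 11.3% called lower. The median log2 fold change was 0.23 over the family and 0.03 over all genes tested. All 3 E9.5 libraries lay above all 3 of E8 in 57 of the 77 genes and below them in 2, shares not counted over all genes tested. The count of genes called higher moved with the libraries used. It was 13 or 14 without E8 replicate 1, 2 or 3, or without E9.5 replicate 2 or 3. In a fit of E8 and E9.5 alone it was 50.

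The 2 genes that fell from E8.5 to E9.5 both have long intervals, and the authors' counts may hold intronic reads and reads of either strand. Mrps6, the small-subunit counterpart of bacterial S6 (chr16:92058270-92112227), measured 67.8, 80.2 and 68.0 CPM at E8.5 and 52.3, 46.1 and 40.4 CPM at E9.5. The groups did not overlap (-0.64 ± 0.10 SE, adjusted p = 0.000751, edgeR). Its interval encloses Slc5a3, a sodium and myo-inositol transporter gene on the same strand, whose count equals 77.2% of that of Mrps6.

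Slc5a3 itself fell over the interval (-0.77 ± 0.11 SE, adjusted p = 0.00052, edgeR). If every Slc5a3 read was also counted for Mrps6, which no source used here states, the remainder of Mrps6 was 15.9, 16.5 and 12.01 CPM at E8.5 and 13.65, 12.6 and 11.96 CPM at E9.5. Those remainders overlapped, and E8 (13.3 to 13.9 CPM) and E14 (12.5 to 12.7 CPM) lay in the same range. Changes of Mrps6 and of Slc5a3 cannot be told apart in the counts of the Mrps6 interval.

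Mrps28, the small-subunit protein related to bacterial S1 (chr3:8802146-8923918), has the longest interval of the family, at 121773 bp. It measured 49.2, 59.6 and 43.6 CPM at E8.5 and 35.9, 32.2 and 33.3 CPM at E9.5 (-0.59 ± 0.11 SE, adjusted p = 0.00217). The stages did not overlap, and E8.5 also lay above E8, at 38.8, 34.1 and 36.8 CPM. The 2 genes inside its interval are pseudogenes with at most 0.0103 of its count.

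Gene span ran with the changes across the family. Over the 77 genes, Pearson's r between log2 span and log2 fold change was 0.58 from E8 to E8.5 and -0.41 from E8.5 to E9.5. These are correlations across genes that share the same libraries, so they are given without a p-value. Over all genes tested Spearman's rho was 0.26 and -0.23, beside 0.46 and -0.20 over the family. The 7 genes spanning over 50 kb had 1 rise and 2 falls from E8.5 to E9.5 with a median of -0.01, and the 70 shorter ones had 61 rises and 0 falls with a median of 0.50.

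With library offsets adjusted for a smooth trend on gene span, 4 of the 7 long genes rose and 2 fell (median 0.22), and 61 of the 70 shorter ones rose (median 0.46). The falls were smaller in that fit, at -0.24 ± 0.06 SE for Mrps28 and -0.44 ± 0.08 SE for Mrps6. Mrps9, the counterpart of bacterial S9, was not called without the adjustment (-0.01 ± 0.07 SE) and rose with it (0.19 ± 0.06 SE, adjusted p = 0.0286). What lies behind the relation with span was not tested.

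**Figure D4:**
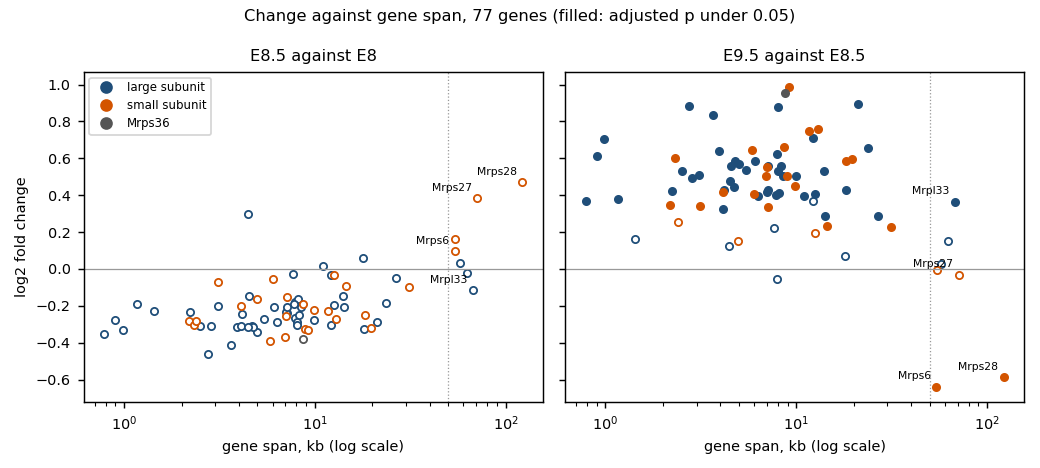
Log2 fold change of each of the 77 genes against its span in kb (log scale) from E8 to E8.5 (left) and from E8.5 to E9.5 (right); the dotted line marks 50 kb. Long genes such as Mrps28 and Mrps27 lie above the rest on the left, and Mrps28 and Mrps6 lie lowest on the right.

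Of the 77 genes, 13 were not called from E8.5 to E9.5 (Mrpl1, Mrpl10, Mrpl12, Mrpl14, Mrpl17, Mrpl43, Mrpl48, Mrps9, Mrps10, Mrps18a, Mrps26, Mrps27 and Mrps34). Mrpl10 and Mrpl12 form the stalk of the large subunit, where translation factors bind. Mrpl10 (chr11:97041560-97049213) measured 32.2, 23.6 and 29.7 CPM at E8.5 and 34.5, 33.0 and 32.2 CPM at E9.5 (0.22 ± 0.11 SE, adjusted p = 0.149). Mrpl12 (chr11:120484613-120489065) measured 17.6, 22.9 and 22.7 CPM in the E8 libraries, 35.1, 21.5 and 21.2 CPM in those of E8.5, 31.0, 26.7 and 27.2 CPM in those of E9.5 and 30.6, 31.3 and 31.6 CPM in those of E14. E8.5 replicate 1 stood above the other libraries, and of the 5 comparisons E14 against E8 was the one called (0.56 ± 0.17 SE, adjusted p = 0.0146). That call ended without E8 replicate 1. The Mrpl12 interval overlaps another counted gene on the opposite strand with 0.50 times its count.

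The 3 paralogs of bacterial S18 differed in course. Mrps18a, which sits in the large subunit (chr17:46110986-46128910), lay between 17.7 and 21.2 CPM in all 12 libraries and was called in no comparison. Mrps18c, in the small subunit (chr5:100798627-100804471), went from 11.4, 9.75 and 12.7 CPM at E8.5 to 16.4, 17.7 and 18.8 CPM at E9.5 (0.64 ± 0.10 SE, adjusted p = 0.000564). Its E14 libraries held 16.0, 14.3 and 14.6 CPM. Mrps18b rose and then fell, as given below. The Mrps18a and Mrps18c intervals overlap other counted genes with 0.83 and 0.49 times their counts. The differences between the paralogs were not tested.

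From E9.5 to E14, 20 of the 77 genes fell and 3 rose, beside 24.6% of all genes tested called lower and 25.4% called higher. Among protein-coding genes these shares were 28.5% lower and 30.1% higher, so the share of members that fell was near the background and the share that rose was below it. The median log2 fold change was -0.06 over the family and 0.01 over all genes tested, and the former was -0.15 without E14 replicate 1, -0.12 without E9.5 replicate 1, -0.09 without E14 replicate 3 and -0.09 without E8.5 replicate 3. In the large subunit 12 of 50 fell and 0 rose, and in the small subunit 8 of 26 fell and 3 rose. The count of falls depended on single libraries: it was 11 without E9.5 replicate 2, 12 without E9.5 replicate 3, 13 without E14 replicate 2 and 12 without E14 replicate 3. Over the same interval 4 of 4 fibroblast, 4 of 4 endothelial and 3 of 3 macrophage markers rose, and 5 of 5 foregut markers fell. Of 5 cardiomyocyte markers 2 rose and 1 fell, and of 6 erythroid markers 2 rose and 3 fell. In the remaining lists 1 of 4 epicardial markers rose, 1 of 3 neural markers fell and 0 of 7 visceral endoderm markers were called. The fibroblast markers summed to 176 to 317 CPM in the E9.5 libraries and 1715 to 1766 CPM in those of E14, and the part of these cell types in the family's values was not tested.

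Mrps18b, in the small subunit (chr17:35910379-35916389), fell most. Its E8.5 libraries held 18.5, 17.9 and 21.8 CPM, those of E9.5 24.5, 25.8 and 26.8 CPM, and those of E14 16.9, 15.2 and 15.9 CPM. The E14 libraries lay below those of every earlier stage (-0.68 ± 0.09 SE against E9.5, adjusted p = 3.9e-05, edgeR). Its interval overlaps another counted gene with 1.22 times its count.

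Mrpl36, the small zinc-binding counterpart of bacterial L36 (chr13:73331009-73332175), overlaps no other counted gene. It went from 28.9, 29.9 and 29.7 CPM at E9.5 to 21.1, 18.1 and 19.4 CPM at E14 (-0.59 ± 0.10 SE, adjusted p = 0.000441). Mrpl11, at the base of the stalk (chr19:4962306-4966995), went from 32.1, 36.4 and 35.7 CPM to 25.8, 22.1 and 23.6 CPM (-0.54 ± 0.11 SE, adjusted p = 0.00115). In both genes the stages did not overlap, and E14 was also below E8.

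Mrps30, which despite its name sits in the large subunit (chr13:118380110-118387252), went from 30.1, 33.2 and 34.8 CPM at E9.5 to 24.1, 21.1 and 23.6 CPM at E14 (-0.51 ± 0.11 SE, adjusted p = 0.00239). Mrps11, of the small-subunit platform (chr7:78783119-78792989), went from 14.3, 14.4 and 14.9 CPM to 10.5, 9.46 and 10.6 CPM (-0.51 ± 0.11 SE, adjusted p = 0.00194). Mrpl22, which lines the exit tunnel (chr11:58171661-58179565), went from 10.4, 10.01 and 12.5 CPM at E8.5 to 15.2, 17.98 and 17.6 CPM at E9.5 (0.62 ± 0.11 SE, adjusted p = 0.00127). By E14 it stood at 13.7, 11.6 and 11.1 CPM (-0.48 ± 0.11 SE, adjusted p = 0.00293). All of these were separated between E9.5 and E14.

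The 3 genes that rose from E9.5 to E14 are all of the small subunit. Mrps35, found only in mitochondria (chr6:147042764-147073991), went from 25.2, 28.7 and 28.3 CPM to 34.8, 33.8 and 34.8 CPM (0.33 ± 0.07 SE, adjusted p = 0.0017). Mrps25, found only in mitochondria (chr6:92169525-92184033), went from 38.6, 40.9 and 42.1 CPM to 54.1, 47.0 and 49.6 CPM (0.31 ± 0.07 SE, adjusted p = 0.00254). Mrps9 (chr1:42851233-42905683) went from 44.3, 46.7 and 46.7 CPM to 52.7, 51.2 and 53.5 CPM (0.19 ± 0.07 SE, adjusted p = 0.0377). No E14 library of these genes fell within the E9.5 range. The Mrps25 interval overlaps another counted gene with 2.15 times its count, and the Mrps9 call ended with the gene span adjustment (adjusted p = 0.635), without any 1 library of E9.5 or E14, and without E8 replicate 2 or 3.

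Among the genes named for their known roles, defects of Mrps22, Mrpl3 and Mrpl44 cause cardiomyopathy in people. Mrps22, of the small subunit (chr9:98588730-98601660), held 16.7, 15.2 and 18.8 CPM in the E8.5 libraries, 25.9, 29.1 and 30.8 CPM in those of E9.5 and 24.2, 20.8 and 20.4 CPM in those of E14. It rose by E9.5 (0.76 ± 0.10 SE, adjusted p = 0.000239) and fell by E14 (-0.39 ± 0.10 SE, adjusted p = 0.00538), with no overlap either time. Mrpl3 (chr9:105053239-105079888), of the large subunit, held 37.7, 31.9 and 35.8 CPM in the E8.5 libraries, 42.9, 41.5 and 44.1 CPM in those of E9.5 and 36.9, 35.9 and 35.2 CPM in those of E14. Its rise (0.29 ± 0.07 SE, adjusted p = 0.00821) and fall (-0.25 ± 0.07 SE, adjusted p = 0.0105) were both called, but the rise was not called in a fit of the 2 stages alone. Mrpl44 (chr1:79776018-79781445), a large-subunit protein with a ribonuclease fold, measured 12.6, 10.1 and 13.4 CPM at E8.5 and 16.1, 18.5 and 17.8 CPM at E9.5 (0.54 ± 0.11 SE, adjusted p = 0.00357), and its change to E14 was not called (-0.25 ± 0.11 SE, adjusted p = 0.0783). The Mrpl44 interval overlaps another counted gene with 2.35 times its count.

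Over the whole span from E8 to E14, 25 of the 77 genes rose and 8 fell, beside 31.5% of all genes tested called higher and 29.2% called lower. The share that rose was near the background and the share that fell was below it. The median log2 fold change was 0.15 over the family and 0.04 over all genes tested, and without E14 replicate 1 the family's median was also 0.04. The counts of rises and falls ran from 16 to 30 and from 4 to 13 over fits that each left out 1 library, with 16 rises without E14 replicate 1, 4 falls without E14 replicate 2 or E8 replicate 2, and 13 falls without E8.5 replicate 2 or 3.

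Mrpl42 rose most, from 30.1, 31.3 and 31.2 CPM at E8 to 52.1, 52.8 and 53.0 CPM at E14 (0.77 ± 0.09 SE, adjusted p = 1.02e-05). Mrps33 followed (0.63 ± 0.11 SE, adjusted p = 0.000405), and then Mrps24, from 18.6, 18.3 and 18.3 CPM to 29.7, 25.2 and 28.2 CPM (0.59 ± 0.10 SE, adjusted p = 0.000348). All 3 were separated between E8 and E14. Mrpl30 rose by 0.55 ± 0.11 SE (adjusted p = 0.000698) and Mrps31, a small-subunit protein found only in mitochondria, by 0.47 ± 0.09 SE (adjusted p = 0.00066). The falls were led by Mrps6 (-0.61 ± 0.10 SE, adjusted p = 0.00022), with its enclosed gene, and then by Mrpl11 (-0.41 ± 0.11 SE, adjusted p = 0.00567) and Mrpl36 (-0.40 ± 0.10 SE, adjusted p = 0.0044). Mrps18b, Mrpl49 and Mrps30 fell by 0.33, 0.29 and 0.29 on the log2 scale. The calls of Mrpl49 and Mrps30 each ended without E14 replicate 2 or 3 or E8 replicate 2 or 3, and that of Mrps30 also without E9.5 replicate 2.

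The comparison of E9.5 with E8.5 and that of E14 with E8 share no library. Of the genes that rose in each, 21 were shared, which is 33.9% of the 62 that rose from E8.5 to E9.5 and 84% of the 25 that rose from E8 to E14. These are close to the shares over the whole family, of which 32.5% rose from E8 to E14 and 80.5% rose from E8.5 to E9.5. The other 4 of the 25 were Mrpl12, Mrpl14, Mrpl48 and Mrps9.

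Levels between genes were compared per kilobase of annotated exon. An exon length was used for the 63 genes whose interval is identical in the annotation, and these ran from 1.55 to 49.5 CPM per kilobase, with a median of 10.4. Mrps28 (49.5), Mrps6 (37.4) and Mrps21 (37.4), the counterpart of bacterial S21, were highest. Mrps10 (1.55), Mrps35 (3.19) and Mrpl17 (3.62) were lowest. Since counts may include introns and overlapping genes, exon length does not fully set this scale. Mrps28 has the longest interval of the family, and Mrps6 encloses Slc5a3.

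A head-to-head neighbour, a coding gene on the other strand whose start lies within 1000 bp, was found for 29 of the 77 genes. Of these 24 rose from E8.5 to E9.5 with a median of 0.48, beside 62 of 77 and 0.44 over the whole family. Mrps12, of the decoding centre, starts 172 bp from Sars2, the mitochondrial seryl-tRNA synthetase. Mrps12 rose by 0.35 ± 0.11 SE (adjusted p = 0.0301) from E8.5 to E9.5 and Sars2 by 0.28 ± 0.09 SE (adjusted p = 0.023). From E9.5 to E14 Mrps12 changed by -0.34 ± 0.11 SE (adjusted p = 0.0247) and Sars2 by -0.67 ± 0.09 SE (adjusted p = 4.9e-05). The rise of Mrps12 was not called in a fit of the 2 stages alone, nor without E8.5 replicate 2 or E9.5 replicate 2 or 3, and its fall was not called without E9.5 replicate 2 or E14 replicate 2 or 3.

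Other neighbours went the same or the opposite way. Ppp1r10, a phosphatase subunit gene that starts 45 bp from Mrps18b, fell from E8.5 to E9.5 (-0.42 ± 0.07 SE, adjusted p = 0.00078), where Mrps18b rose (0.40 ± 0.08 SE, adjusted p = 0.00358). Hira, a histone chaperone gene that starts 270 bp from Mrpl40, fell (-0.54 ± 0.12 SE, adjusted p = 0.0062), where Mrpl40 rose (0.59 ± 0.09 SE, adjusted p = 0.000702). The Mrpl40 interval overlaps another counted gene on the opposite strand with 3.61 times its count. Mrpl32 and Psma2, a proteasome subunit gene 205 bp away, both rose, Psma2 by 0.49 ± 0.13 SE (adjusted p = 0.011). Mrps11 and Mrpl46, both of the family, start 412 bp apart with overlapping first parts on opposite strands, so their counts may share reads.

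Mitoribosomal proteins under other names were counted apart from the family. Of Dap3, Chchd1, Aurkaip1, Ptcd3, Gadd45gip1 and Ict1, 5 of 6 rose from E8.5 to E9.5 and 4 of 6 fell from E9.5 to E14. Dap3, of the small-subunit head, was the exception in the first interval (0.18 ± 0.07 SE, adjusted p = 0.054).

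Genes for building the mitoribosome and modifying its RNA also rose and then fell in part. Of 26 tested, 16 rose from E8.5 to E9.5 and 0 fell, and from E9.5 to E14 12 fell and 2 rose. The largest fall to E14 was Malsu1, an assembly factor that keeps an immature large subunit from joining the small one (-0.80 ± 0.09 SE, adjusted p = 1.3e-05). Mettl15, a methyltransferase of the small-subunit RNA, rose (0.88 ± 0.16 SE, adjusted p = 0.00062).

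Of 15 mitochondrial translation factors, 10 rose from E8.5 to E9.5 and 0 fell, and from E9.5 to E14 3 rose and 3 fell. Tufm, the elongation factor that brings transfer RNA, rose by 0.72 ± 0.09 SE (adjusted p = 0.00026), and Slirp, which stabilises mitochondrial messenger RNA, by 0.73 ± 0.12 SE (adjusted p = 0.0011). To E14, Mrrf, which recycles ribosomes, rose by 0.50 ± 0.07 SE (adjusted p = 7.7e-05), and Slirp fell by 0.40 ± 0.12 SE (adjusted p = 0.017). Of 20 aminoacyl-tRNA synthetases and related enzymes, 6 rose and 2 fell to E9.5, and 3 rose and 7 fell to E14, where Ears2, which charges transfer RNA with glutamate, rose most (0.74 ± 0.07 SE, adjusted p = 2.7e-06).

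Of 14 genes for mitochondrial DNA and RNA maintenance, 8 rose and 1 fell to E9.5, and 2 rose and 10 fell to E14. Polg, the mitochondrial DNA polymerase, was the one that fell first (-1.05 ± 0.15 SE, adjusted p = 0.00042). Elac2, which trims transfer RNA, fell most to E14 (-0.94 ± 0.07 SE, adjusted p = 4.1e-07). Of 11 regulators, 3 rose and 5 fell to E9.5, and 3 rose and 4 fell to E14. Ppargc1a, a coactivator of mitochondrial genes, rose to E14 (1.41 ± 0.24 SE, adjusted p = 0.00045), and Mycn fell (-1.07 ± 0.10 SE, adjusted p = 3.1e-06). Nrf1, Gabpb1 and Yy1, whose products belong to factors named with the promoters above, fell from E8.5 to E9.5, with log2 fold changes of -0.29 ± 0.10 SE (adjusted p = 0.034), -0.33 ± 0.07 SE (adjusted p = 0.0046) and -0.24 ± 0.06 SE (adjusted p = 0.011). Gabpa, of the GABP factor, rose (0.30 ± 0.08 SE, adjusted p = 0.015).

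Nuclear genes of the respiratory complexes, whose other core subunits the mitoribosome makes, rose in both intervals. Of 83 nuclear genes of these complexes, 78 rose from E8.5 to E9.5 (median 0.81) and 72 rose from E9.5 to E14 (median 0.52), with 0 falls in either interval. Their summed level was 6039 ± 207 CPM at E8, 5054 ± 620 CPM at E8.5, 8911 ± 809 CPM by E9.5 and 12651 ± 812 CPM by E14 (SD, n = 3). In the same interval to E14, 3 mitoribosomal genes rose and 20 fell, with the median of -0.06 given above. The difference between the lists was not tested.

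The cytosolic ribosomal proteins, which build the ribosomes of the cytosol, rose to E9.5 and fell in part to E14. Of 87 tested, 74 rose and 1 fell to E9.5 (median 0.59), and 0 rose and 53 fell to E14 (median -0.35). Of 20 cell cycle genes, 11 rose to E9.5 and 19 fell to E14 (median -0.72), with 0 calls the other way. Whether these lists differ from the family was not tested.

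**Figure D5:**
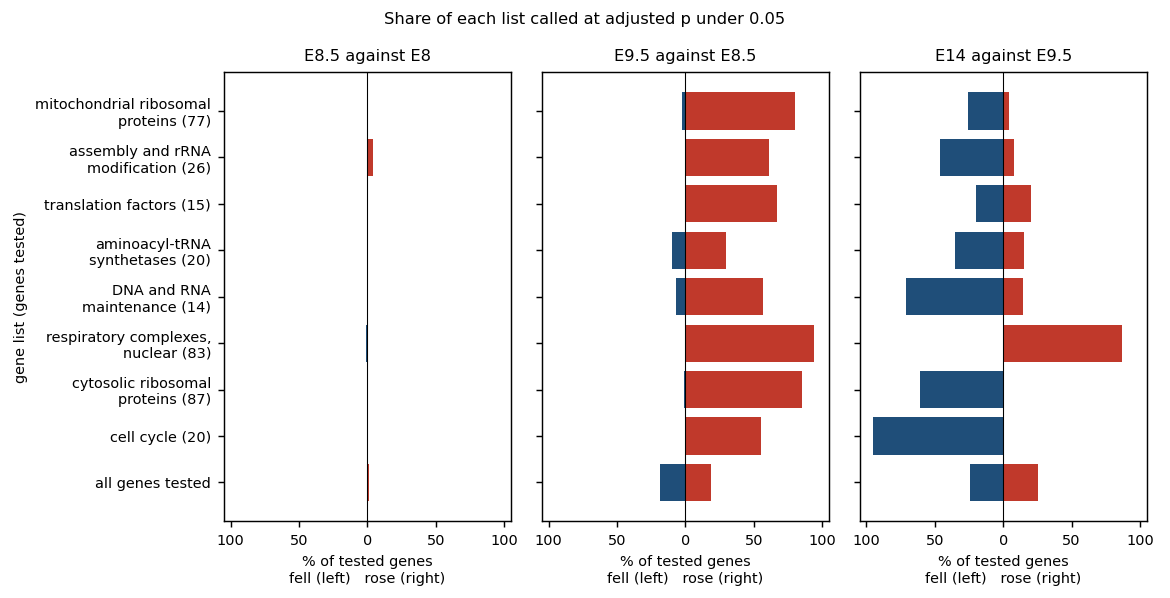
Percentage of tested genes of each list that rose (red, right) or fell (blue, left) at an adjusted p under 0.05 in the 3 intervals between neighbouring stages. From E9.5 to E14 the mitoribosomal list has 3 rises and 20 falls of 77, while the respiratory list has 72 rises and 0 falls of 83.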

How the data were processed

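The 77 genes, the gene lists and the tests were chosen with earlier results of these data known, and 1 comparison, E9.5 against E8, was added after seeing the data. The file the authors deposited gives unnormalised whole-number counts of reads for each gene interval in every library, per the file headers. Per the submitters' processing notes, STAR 2.5.0 and Cufflinks 2.2.1 were among the tools and GRCm38, mm10 and hg38 among the builds, with no role stated. Which program counted reads, with which strand option and annotation, is not given in the sources used here. Overlapping and antisense genes may share reads, and intronic reads may be counted. Of the family, 39 intervals overlap another counted gene and 38 do not.

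Genes passing filterByExpr (28846) were fitted with edgeR 4.0.16 in R 4.3.3: TMM factors (0.913 to 1.07), 1 robust quasi-likelihood model with a mean per stage over 12 libraries (common dispersion 0.0362), and Benjamini-Hochberg adjustment over all genes tested, with calls at 0.05. SE are those of the log2 fold changes. The code was tested on simulated data. Intervals were matched to GENCODE M21 for exon lengths and strands, 63 of the family by identical interval and 14 by symbol, whose exon lengths were not used. Mrpl58 was not matched under that name, and its older symbol Ict1 was used; Mrm3, Ftsj2, Rcc1l and Twnk were not matched. Mitochondrially encoded genes were not analysed here.

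Genes named are, per interval, up to 6 called genes each way with the largest change and separated libraries. Named too are the 3 highest and 3 lowest per kilobase of exon, and from other lists the called genes with the largest change. A fixed set with known roles was also to be named. Of it, values of Mrps14, Mrps16, Mrps34 and Mrpl24 in the main fit are not printed here. Mrps14 and Mrps27 without E8.5 replicate 3 and the remainder of Mrps6 were chosen after their values were seen. So were the promoter stretches shown and the neighbour pairs and regulators described. Alternatives were RLE and upper-quartile factors, no filter, a replicate block, fits of the 2 stages alone, DESeq2 1.42.0, glmTreat, a gene span adjustment, leaving out small structural RNA and globin genes or overlapping genes, and each library left out. Same-numbered libraries of different stages did not deviate together: correlations ran from -0.0836 to 0.134 over 18 pairs, and from -0.173 to 0.190 for other numbers, so the numbers were not taken as pairs. Depth was 56574386 to 122785175 counts per library.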

Additional observations from a re-analysis of the deposited data

How the results depend on the processing

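Counts of the 77 genes called higher or lower stayed within 1.5 times of those reported under RLE and upper-quartile factors, no filter on low counts and the gene span adjustment. In each of these settings 68 genes differed over the 4 stages, and without small structural RNA and globin genes 70 did. With a replicate block the counts were 0 higher and 0 lower (E8.5 against E8), 62 and 2 (E9.5 against E8.5), 2 and 18 (E14 against E9.5), 24 and 7 (E14 against E8) and 20 and 1 (E9.5 against E8), and 66 differed over the 4 stages. The replicate block ended the calls of Mrps9 in E14 against E9.5, Mrps11 in E14 against E8 and Mrpl22 in E9.5 against E8, and of no other named gene.

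From E8 to E8.5, DESeq2 called 2 genes higher and 21 lower, and without small structural RNA and globin genes 1 was higher and 5 lower. Shares over all genes tested were not counted for either fit. Against a minimum change of 0.5 on the log2 scale (glmTreat), 8 genes were higher and 0 lower in E9.5 against E8.5, 0 and 1 in E14 against E9.5, 1 and 0 in E14 against E8, and 0 and 0 in E9.5 against E8. Among the 38 genes overlapping no other, which are fewer by construction, the counts were 35 and 0, 1 and 8, and 16 and 2 in the first 3 of these, and 0 were lower in E9.5 against E8. Fits of the 2 stages alone gave 15 lower in E14 against E8, and 50 higher and 2 lower in E9.5 against E8; the cause was not tested. In E9.5 against E8.5 such a fit ended the calls of 7 named genes, Mrpl3, Mrpl36, Mrpl49, Mrps12, Mrps25, Mrps30 and Mrps35 (adjusted p 0.0513 to 0.0776). With the gene span adjustment Mrps28 changed sign in E14 against E9.5 (-0.31) and Mrps9 in E9.5 against E8.5 (0.19).

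With each library left out in turn, 0 to 2 genes were higher and 0 to 45 lower in E8.5 against E8, 53 to 66 and 2 to 3 in E9.5 against E8.5, 2 to 3 and 11 to 26 in E14 against E9.5, 16 to 30 and 4 to 13 in E14 against E8, and 13 to 35 and 1 to 2 in E9.5 against E8. Over the 4 stages 61 to 72 differed. Each gene had at least 551 counts in every library.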
